A study of Zea mays and Oryza sativa with 119 samples.

Results

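The maize genes described here code for 6 proteins listed as metabolite transporters of the inner chloroplast envelope. They were chosen by identifier and are 6 of the 110005 features of the maize table. GRMZM2G383088 (pOMT1) and GRMZM2G040933 (pDCT1) carry these names in a reference gene table. GRMZM2G086258 is named pDCT2 there and is also listed under the name ZmpDCT3. The names MEP3 (GRMZM2G138258), triose phosphate translocator (GRMZM2G070605) and PEP translocator (GRMZM2G174107) came with the list of identifiers and were not in that table.

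In C4 photosynthesis of maize, mesophyll cells fix carbon into oxaloacetate, reduce it to malate in their chloroplasts and pass the malate to bundle sheath cells, whose chloroplasts release the carbon dioxide again. Each turn of this cycle moves acids, phosphoenolpyruvate (PEP) and sugar phosphates across chloroplast envelopes, which these compounds cross only on carrier proteins. The C4 leaf therefore depends on such carriers as well as on the soluble enzymes.

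The leaf material came from the maize inbred line B73, with no treatment or mutation. Seedlings stood in light of 550 µmol/m2/s for 12 hours a day, at 31 °C by day and 22 °C by night and 50% relative humidity. At 9 days of age the third leaf was divided into 15 pieces of 1 cm. They carry the numbers 1 to 4 and 6 to 16, and each piece is one group here. Which end of the leaf section 1 comes from is not stated in the labels. Each replicate pooled 7 plants on average and was collected on its own date, with 5 replicates numbered 1, 2, 3, 4 and 6, so the p-values below measure the spread between pools of plants. Levels are FPKM, fragments per length of transcript and per size of library, so levels of different genes can be set side by side.

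Of 75 libraries 69 were used. The others are replicate 2 of section 1, replicate 6 of section 3 and replicates 2, 3, 4 and 6 of section 7, which leaves section 7 with 1 library and no measure of spread. Depth relative to the median library was 0.233 to 2 in the libraries used and 0.00515 to 0.0769 in those left out. It was read from the most common shift of low nonzero values against the median of each gene. In section 8 this depth was 0.233 to 0.574, with 14.7% to 33.0% of tested genes at 0. In section 4 it was 1 to 1.52, with 6.16% to 8.52% of tested genes at 0. The part of depth in the levels of these sections was not tested. By the profile of all tested genes, 46 of these 69 were most like their own section. Section 7 replicate 1 could not be, because each library was compared with other replicates only. A section at least 3 steps away was the best match of 3 libraries, namely section 12 replicate 4, section 14 replicate 2 and section 16 replicate 3. Section 16 replicate 6 ran high in general, by a median factor of 1.88 relative to its section over 13910 genes, and at 1.80 to 2.00 times for the transporters. Section 2 replicate 6 and section 4 replicate 6 were also high for most of the 6 genes. Values without these libraries are given where they move a result.

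All 6 genes were lowest in section 1 and at least 4.07 times higher in their highest section, and they parted into profiles of different shape. By mean, pOMT1 and pDCT1 were highest in section 8 and lower beyond it. MEP3 and the triose phosphate translocator had their highest means in sections 12 and 11. For the triose phosphate translocator, the place of section 11 ahead of section 12 rests on section 12 replicate 4, one of the libraries that matched another section. pDCT2 had high means in sections 7, 8 and 12, and the PEP translocator had means between 380 and 486 FPKM in every section from 4 on. In the moderated F-test of limma on log2(FPKM + 1), all 6 differed among sections, with adjusted p between 2.20e-28 and 2.10e-15. This test called 80.9% of the 23052 genes tested, so variation along the leaf was not particular to the transporters. A gene was called at a Benjamini-Hochberg adjusted p under 0.05 with section means at least 1 apart on the log2 scale.

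**Figure D1:**
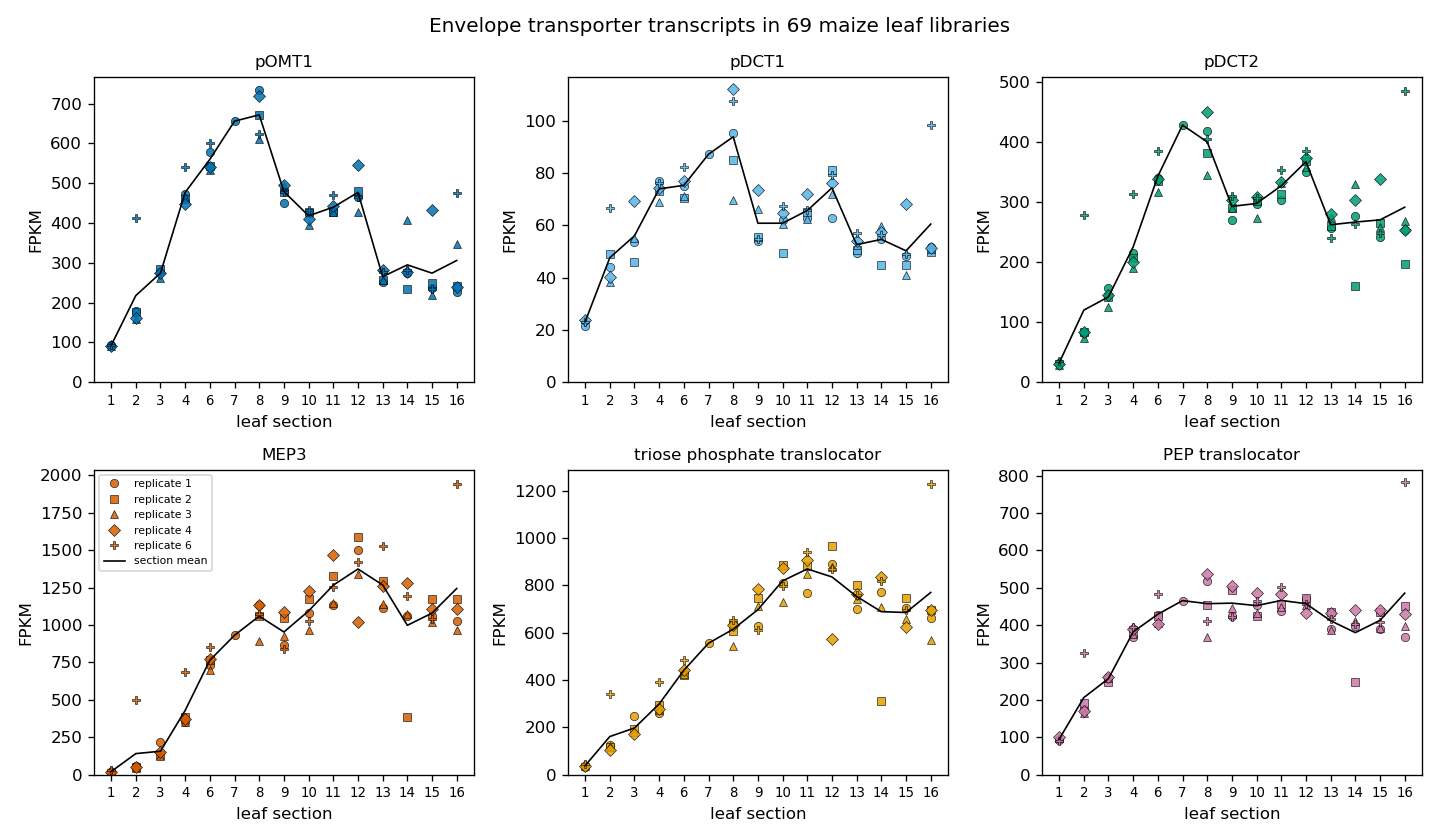
FPKM of each transporter in the 69 libraries (symbols, by replicate) against the leaf section, with the section mean as a black line; section 7 has 1 library, and each panel has its own axis from 0. The means of pOMT1 and pDCT1 peak in section 8, at 672 and 93.9 FPKM, while those of MEP3 and the triose phosphate translocator peak in sections 12 and 11, at 1374 and 869 FPKM. The section 12 mean of the triose phosphate translocator includes replicate 4 at 575 FPKM, where the rest had 870 to 965.

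pOMT1 is the carrier that takes oxaloacetate into the mesophyll chloroplast in exchange for malate. Its level was 92.0 ± 1.4 FPKM in section 1 (SD, n = 4), 477 ± 36 in section 4 (n = 5) and 560 ± 29 in section 6 (n = 5). It reached 672 ± 55 FPKM in section 8 (n = 5), then stood at 479 ± 19 in section 9 and 477 ± 43 in section 12 (n = 5 each). In section 13 it was 265 ± 14 FPKM, and 306 ± 106 in section 16 (n = 5 each). Every one of the 5 replicates had its highest pOMT1 level in section 8. In the order of means, sections 8, 7, 6, 9, 4, 12, 11, 10, 16, 14, 3, 15, 13, 2 and 1, the ranges of neighbours overlapped in 11 of 14 cases. The ranges were apart between sections 7 and 6, 6 and 9, and 2 and 1, where section 7 is a single library.

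pDCT1 and pDCT2 are dicarboxylate carriers, which exchange acids such as malate, 2-oxoglutarate, aspartate and glutamate. Earlier work in maize placed pDCT1 mainly in mesophyll and pDCT2 mainly in bundle sheath. The level of pDCT1 was 23.1 ± 1.2 FPKM in section 1 (SD, n = 4), 74.0 ± 3.1 in section 4, 93.9 ± 17 in section 8, 60.8 ± 8.7 in section 9 and 60.5 ± 21 in section 16 (n = 5 each). The highest pDCT1 level fell in section 8 in replicates 1, 2, 4 and 6, and in section 12 in replicate 3. pDCT2 had 32.0 ± 2.8 FPKM in section 1 (n = 4), 225 ± 50 in section 4, 400 ± 39 in section 8, 293 ± 15 in section 9, 367 ± 14 in section 12 and 292 ± 112 in section 16 (n = 5 each). pDCT2 was above pDCT1 in all 69 libraries, and the ratio of their means went from 1.39 in section 1 to 3.05 in section 4 and 4.82 in section 9. It lay between 4.26 and 5.38 in every section from 6 on. For pDCT1 the ranges overlapped for 12 of 14 neighbours in the order 8, 7, 6, 12, 4, 11, 10, 9, 16, 3, 14, 13, 15, 2 and 1, and were apart between 7 and 6 and between 2 and 1. For pDCT2 they overlapped for 12 of 14 in the order 7, 8, 12, 6, 11, 10, 9, 16, 15, 14, 13, 4, 3, 2 and 1, and were apart between 4 and 3 and between 2 and 1. How reads shared by similar genes were divided is not given in the sources used here, so the split between these related carriers is uncertain.

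MEP3 belongs to the proteins found in maize chloroplast envelopes, and no substrate is stated here for it. It had the widest span of the 6, with a mean 66.9 times higher in section 12 than in section 1. Its level was 20.5 ± 8.9 FPKM in section 1 (SD, n = 4), 429 ± 144 in section 4, 765 ± 58 in section 6, 1059 ± 98 in section 8, 953 ± 109 in section 9, 1374 ± 218 in section 12 and 1244 ± 398 in section 16 (n = 5 each). It was the lowest of the 6 by mean in section 1 and the highest in every section from 6 on. In all 51 libraries of sections 6 to 16 it lay above each of the other 5 genes. The order of its sections was 12, 13, 11, 16, 10, 15, 8, 14, 9, 7, 6, 4, 3, 2 and 1, with overlapping ranges for 10 of 14 neighbours and ranges apart at 7 and 6, 6 and 4, 4 and 3, and 2 and 1. Each replicate first reached 50% of its own highest MEP3 level in section 6, 7 or 8.

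The triose phosphate translocator exchanges triose phosphate and 3-phosphoglycerate for phosphate, and so links the Calvin-Benson cycle in the chloroplast with the cytosol. Its level was 37.9 ± 4.8 FPKM in section 1 (SD, n = 4), 299 ± 53 in section 4, 614 ± 43 in section 8, 697 ± 75 in section 9, 869 ± 66 in section 11 and 769 ± 262 in section 16 (n = 5 each). Its highest mean was 22.9 times its lowest. The order of sections was 11, 12, 10, 16, 13, 9, 14, 15, 8, 7, 6, 4, 3, 2 and 1, and the same 4 neighbours as for MEP3 had ranges apart. In replicates 1, 2, 3, 4 and 6 its highest level fell in sections 12, 12, 12, 11 and 16, which are the sections in which MEP3 was highest too. Section 16 replicate 6 is the library that ran high in general. Without it, replicate 6 was highest in section 13 for MEP3, at 1530 FPKM, and in section 11 for the triose phosphate translocator, at 942. The place of section 11 ahead of section 12 for the triose phosphate translocator rests on section 12 replicate 4, at 575 FPKM, which matched section 9 best. The remaining libraries of section 12 had 870 to 965 FPKM, all above the section 11 mean of 869.

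The PEP translocator moves PEP across the envelope in exchange for phosphate, which in mesophyll cells brings PEP to the carboxylase in the cytosol. Its level was 94.7 ± 4.5 FPKM in section 1 (SD, n = 4), 382 ± 10 in section 4, 429 ± 33 in section 6, 457 ± 71 in section 8, 459 ± 38 in section 9 and 486 ± 168 in section 16 (n = 5 each). It was the highest of the 6 by mean in section 1. Section 4 already had 78.6% of its highest mean, against 31.2% for MEP3 and 34.4% for the triose phosphate translocator. In the order 16, 11, 7, 9, 8, 12, 10, 6, 15, 13, 4, 14, 3, 2 and 1 the ranges of 13 of 14 neighbours overlapped, and sections 2 and 1 were apart. Its place of section 16 at the head of the order rests on replicate 6, with 782 FPKM, where the remaining 4 libraries had 369 to 450.

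The 6 genes changed by different amounts, so their make-up shifted along the leaf. Their summed level was 300 ± 14 FPKM in section 1 (SD, n = 4), 1886 ± 289 in section 4 and 3585 ± 350 in section 12 (n = 5 each). pOMT1 held 30.7% ± 1.4 of that sum in section 1 (n = 4), 25.5% in section 4, 16.3% ± 1.0 in section 9 and 9.75% in section 16 (n = 5 each). MEP3 went the other way, from 6.76% ± 2.5 in section 1 (n = 4) to 22.3% in section 4, 32.3% ± 1.2 in section 9 and 39.5% ± 1.7 in section 16 (n = 5 each). The share of the PEP translocator was 31.6% in section 1 and 15.6% in section 9, and that of the triose phosphate translocator 12.6% and 23.7%. pDCT2 held 10.6% in section 1, 13.1% in section 3 and 10.0% in section 9. These shares do not depend on the scaling of a library, since all 6 values come from it.

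**Figure D2:**
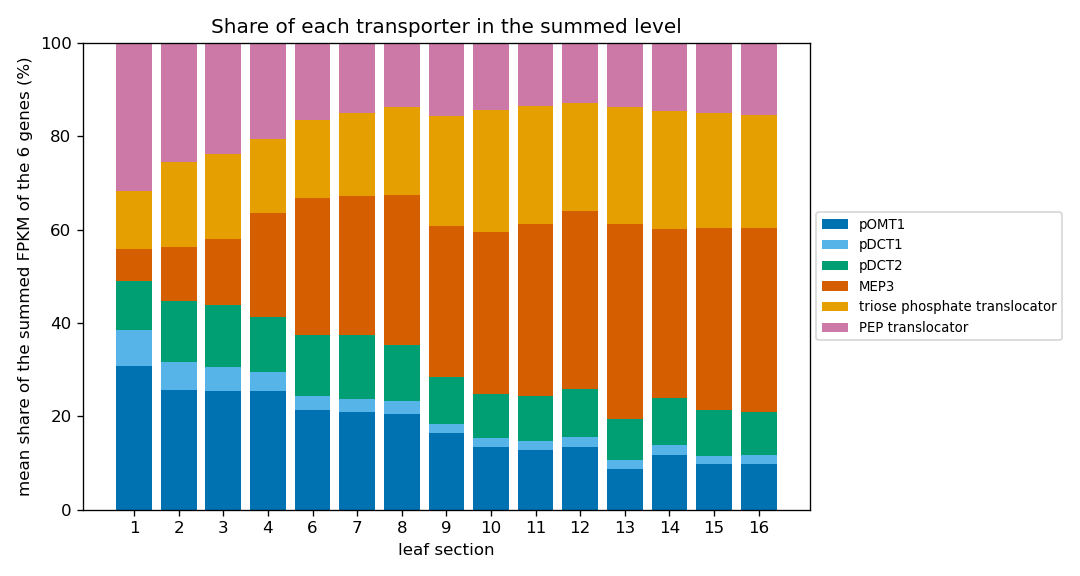
Mean share of each transporter in the summed FPKM of the 6 genes (stacked bars, percent) against the leaf section, with n = 4 in sections 1 and 3, 1 in section 7 and 5 elsewhere. The share of MEP3 widens from 6.76% in section 1 to 39.5% in section 16, while that of pOMT1 narrows from 30.7% to 9.75%.

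The first comparison set section 4 against section 1, and all 6 transporters rose. In limma's test 6 of 6 were called higher, with adjusted p under 0.05 and a log2 change of at least 1, against 19.2% of all genes higher and 18.1% lower. Their median change was 2.56 on the log2(FPKM + 1) scale, beside -0.02 over all genes tested.

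pOMT1, the oxaloacetate and malate carrier, had 93.6, 90.2, 91.6 and 92.6 FPKM in section 1 in replicates 1, 3, 4 and 6, and 472, 460, 466, 447 and 540 FPKM in section 4 in replicates 1, 2, 3, 4 and 6. The groups did not overlap, and the log2 change was 2.36 ± 0.17 (SE, limma adjusted p 2.78e-18). MEP3 had 16.0, 15.2, 17.2 and 33.8 FPKM in section 1 and 353, 385, 352, 371 and 685 in section 4, in the same order of replicates. Its lowest value in section 4 was far above its highest in section 1, replicate 6 was the highest library in both sections, and the log2 change was 4.34 ± 0.33 (limma adjusted p 3.83e-17). The triose phosphate translocator had 34.2, 35.0, 37.7 and 44.7 FPKM in section 1 and 259, 295, 273, 276 and 391 in section 4. These groups did not overlap either, and the log2 change was 2.94 ± 0.21 (limma adjusted p 1.59e-18).

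The PEP translocator had 91.5, 97.1, 99.9 and 90.5 FPKM in section 1 and 368, 380, 377, 390 and 395 in section 4. Its libraries lay close together within each section, and the log2 change was 2.00 ± 0.14 (limma adjusted p 1.06e-18). pDCT2 had 32.6, 28.9, 30.8 and 35.5 FPKM in section 1 and 216, 207, 191, 200 and 314 in section 4. Replicate 6 stood above the other 4 in section 4, no library of one section reached the other section, and the log2 change was 2.76 ± 0.20 (limma adjusted p 5.75e-18). pDCT1 had 21.4, 24.0, 23.8 and 23.0 FPKM in section 1 and 77.0, 73.3, 69.1, 74.4 and 76.1 in section 4. It had the smallest change of the 6, at 1.64 ± 0.15 with no overlap (limma adjusted p 1.49e-14). In all 4 replicates with both sections, each of the 6 genes was higher in section 4.

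Markers of cell types moved in the same comparison. The summed level of 3 genes of dividing cells was 1757 to 2237 FPKM in section 1 and 77.5 to 164 in section 4. Most of it came from GRMZM2G084195, with a mean of 1869 FPKM in section 1, against 18.1 in GRMZM2G030523 and 24.4 in GRMZM2G108712. That of 4 mesophyll genes (pep1, C4ppdkZm1, mdh6 and GRMZM2G121878) was 319 to 611 FPKM in section 1 and 8811 to 12980 in section 4, and that of 4 bundle sheath genes (ME1, rbcS, GRMZM2G001696 and GRMZM2G162529) 466 to 692 and 4334 to 6680. Of these 8 genes, 6 are also in the list of C4 enzymes and 2 in that of Calvin-Benson genes, so the lists are not independent. Limma called 3 of 3 genes of dividing cells lower, and 4 of 4 mesophyll and 3 of 4 bundle sheath genes higher. Over all genes 18.1% were called lower and 19.2% higher. GRMZM2G001696 was not called. Its median was 15.8 FPKM in section 1 and 34.5 in section 4, where its highest library had 586. None of the markers was at 0 in all libraries of a section compared. Their part in the changes of the transporters was not tested, and in such whole sections fewer cells of a type and less RNA per cell cannot be told apart.

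The second comparison set section 9 against section 4, and here the transporters parted. MEP3 and the triose phosphate translocator rose further, and the other 4 were not called. The count of 2 of 6 higher stands against 5.03% of all genes higher and 30.3% lower.

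MEP3 had 867, 1047, 928, 1085 and 839 FPKM in section 9 in replicates 1, 2, 3, 4 and 6. All of these lay above the section 4 values given above, the highest of which was 685 in replicate 6. The log2 change was 1.19 ± 0.31 (limma adjusted p 0.00116), with a gain in 5 of 5 replicates. The triose phosphate translocator had 628, 746, 714, 784 and 612 FPKM in section 9. These too lay above every library of section 4, with a log2 change of 1.23 ± 0.20 (limma adjusted p 5.10e-07) and a gain in 5 of 5 replicates.

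pOMT1 had 449, 478, 494, 495 and 479 FPKM in section 9, within the range of section 4. Its log2 change was 0.01, with a 95% interval from -0.31 to 0.33 (limma adjusted p 0.992) with the FPKM as deposited. pDCT1 had 54.0, 55.5, 66.4, 73.5 and 54.6 FPKM, lower than in section 4 in 5 of 5 replicates with ranges that overlap. Its log2 change was -0.29 (95% interval -0.57 to -0.01, limma adjusted p 0.0751). pDCT2 had 270, 290, 291, 304 and 310 FPKM in section 9, where 4 libraries of section 4 were lower than all of these and replicate 6 of section 4 was higher. Its log2 change was 0.40 (95% interval 0.02 to 0.78, limma adjusted p 0.0717). The PEP translocator had 426, 495, 447, 504 and 423 FPKM, each above all of section 4, and a log2 change of 0.26 (95% interval -0.005 to 0.53, limma adjusted p 0.0915).

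The scaling of the libraries bears on this comparison more than on the others, because the median of all genes was -0.59 on the log2 scale. Relative to that median the log2 change was 1.78 in MEP3, 1.82 in the triose phosphate translocator, 0.99 in pDCT2, 0.85 in the PEP translocator, 0.60 in pOMT1 and 0.30 in pDCT1. With upper quartile scaling 4 of 6 were called, since pDCT2 reached 1.14 (limma adjusted p 4.63e-06) and the PEP translocator 1.00 (limma adjusted p 2.49e-08). pOMT1 went from 0.01 to 0.36 with quantile normalization (limma adjusted p 0.0549) and 0.75 with upper quartile scaling (limma adjusted p 7.77e-05), both short of a call. The sign of pDCT1 turned, to 0.34 with quantile normalization and 0.45 with upper quartile scaling. Over all genes, 1159 were called higher and 6981 lower as deposited, 3103 and 3105 with quantile normalization, and 2583 and 3523 with upper quartile scaling. Depth relative to the median library differed as well, at 0.354 to 1 in section 9 and 1 to 1.52 in section 4. Its part in this comparison was not tested.

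The cell type markers moved in this comparison too. All 4 mesophyll markers and 3 of 4 bundle sheath markers rose, with list medians of 1.10 and 1.91 on the log2 scale. Of the markers of dividing cells 1 of 3 fell. Over all genes 5.03% were called higher and 30.3% lower, with a median of -0.59. The 1 of 3 is thus near the share of all genes called lower. The summed mesophyll level was 8811 to 12980 FPKM in section 4 and 22055 to 25743 in section 9. The summed bundle sheath level was 4334 to 6680 FPKM and 10730 to 12419. The sum for dividing cells was 77.5 to 164 FPKM in section 4 and 0.773 to 110 in section 9. Their part in the rise of MEP3 and the triose phosphate translocator was not tested.

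The third comparison set section 16 against section 9. None of the 6 was called by limma, beside 7.67% of all genes higher and 4.49% lower. At an unadjusted p under 0.05 there was 1 of 6, pOMT1. Over all genes 1769 were called higher and 1034 lower as deposited, against 1140 and 1269 with quantile normalization and 1199 and 1532 with upper quartile scaling.

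pOMT1 had 227, 242, 346, 239 and 475 FPKM in section 16 in replicates 1, 2, 3, 4 and 6. Replicate 6, the library that ran high in general, reached into the range of section 9, and the other 4 lay below all of section 9. The log2 change was -0.71 (95% interval -1.03 to -0.39, limma adjusted p 0.000596), lower in 5 of 5 replicates but short of the change of 1 needed for a call. Without section 16 replicate 6 it was -0.88, and without the 3 libraries that matched other sections -0.77.

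MEP3 had 1028, 1170, 969, 1110 and 1942 FPKM in section 16. Each replicate was higher than in its own section 9, while the ranges overlapped, and the log2 change was 0.34 (95% interval -0.29 to 0.97, limma adjusted p 0.476). Without section 16 replicate 6 it was 0.17, with quantile normalization 0.028 and with upper quartile scaling 0.12. The other 4 genes had log2 changes between -0.08 and 0.09 and ranges that overlapped. Without section 16 replicate 6 these were -0.24 in pDCT1, -0.28 in pDCT2, -0.09 in the triose phosphate translocator and -0.16 in the PEP translocator, so the sign of the last 2 turned, as it also did under both other scalings. The summed marker levels of section 16 were 22153 to 47132 FPKM for mesophyll and 11287 to 24070 for bundle sheath, against 22055 to 25743 and 10730 to 12419 in section 9. The ranges of section 16 include replicate 6, which ran high in general. C4ppdkZm1 had a median of 15739 FPKM and a highest value of 31695 in section 16, beside a median of 14926 in section 9. For rbcS these were 5506, 10122 and 5990.

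**Figure D3:**
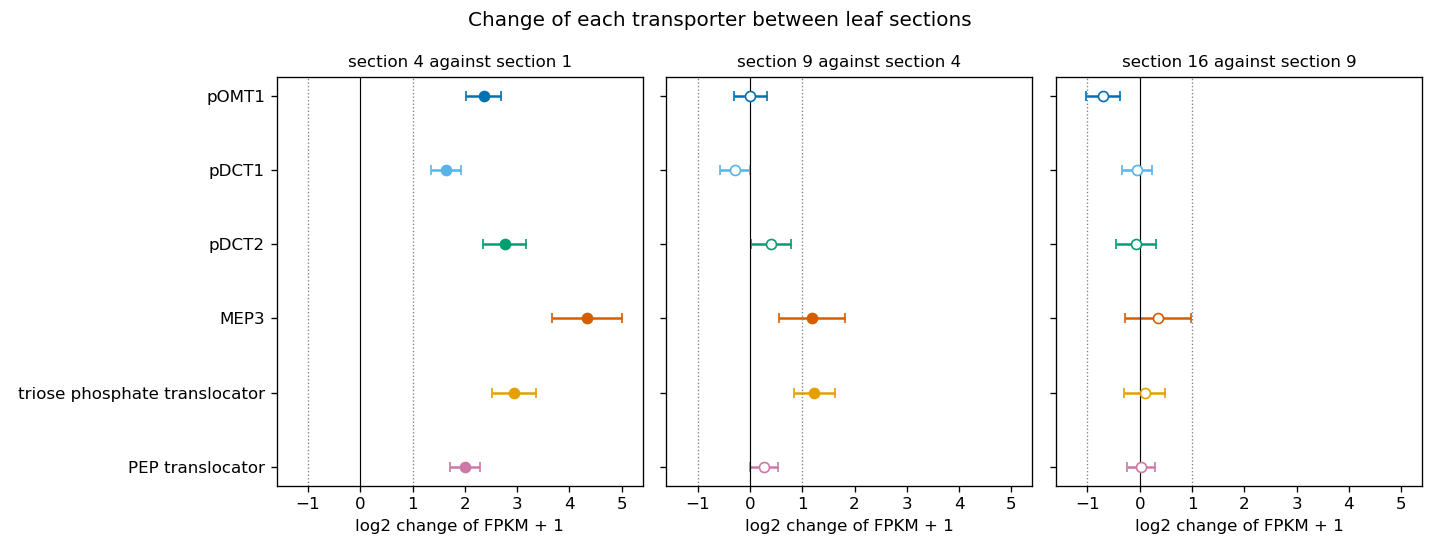
Log2 change of FPKM + 1 of each transporter in the 3 comparisons (points, with 95% intervals from limma); filled points were called and dotted lines mark a change of 1 in either direction. All 6 points are filled in section 4 against section 1, MEP3 and the triose phosphate translocator in section 9 against section 4, and none in section 16 against section 9.

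The steps between successive sections that were called all lay between sections 1 and 4. Of 78 tests, 6 genes over 13 steps with section 7 skipped, limma called 6 and all of them were increases. Over all genes and these steps together, 1.5% of the tests were called higher and 2.6% lower. From section 6 to 8 alone, 450 of 23052 genes were called higher and 3738 lower, beside 0 of 6 transporters. Between sections 1 and 2 the calls were pOMT1 at 1.12, pDCT2 at 1.66, MEP3 at 2.00, the triose phosphate translocator at 1.90 and the PEP translocator at 1.06 on the log2 scale, 5 of 6 against 7.92% of all genes higher and 5.51% lower. pDCT1 changed by 0.99 there (limma adjusted p 3.36e-07) and missed the size needed, while with the replicate number as a block it reached 1.01 and was called. Between sections 3 and 4 MEP3 rose by 1.44 (limma adjusted p 0.00233), 1 of 6 against 3% of all genes higher and 2.59% lower, a call lost at 0.90 with all 75 libraries.

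Replicate 6 weighed on these early steps. In section 2 it had 499 FPKM of MEP3 against 46.5 to 55.5 in the rest, 343 of the triose phosphate translocator against 104 to 123, and 412 of pOMT1 against 160 to 178. Without the libraries of replicate 6 in sections 2 and 4, the step from section 1 to 2 was 0.87 in pOMT1 and 0.89 in the PEP translocator, both no longer called. Under the same choice the step of MEP3 from section 2 to 3 went from 0.91 (limma adjusted p 0.0662) to 1.56 and was called, beside 3.83% of all genes higher and 3.12% lower in that step, as it was at 1.01 with the replicate block (limma adjusted p 0.0199). Its step from section 4 to 6 went from 0.88 (limma adjusted p 0.0769) to 1.06 and was called as well, beside 0.72% of all genes higher and 4.21% lower. That step was also called with quantile normalization, at 1.07, and with upper quartile scaling, at 1.18 (limma adjusted p 0.0268 and 0.0209). The comparison of section 4 with section 1 kept 6 of 6 calls without these libraries.

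Beyond section 8 limma called no step, and the genes with the lowest adjusted p were those that peak there. Few genes of any kind were called in most of these steps. Of 23052 genes, 366 were called from section 9 to 10, 0 from 10 to 11 and from 13 to 14, and 1 from 11 to 12. From 14 to 15 and from 15 to 16 it was 3 each. The 0 of 6 in such steps is therefore no trait of the transporters. An unadjusted p under 0.05 was had by 3 of 6 genes from section 8 to 9, by 3 of 6 from section 12 to 13, and by 0 of 6 in each other step. From section 8 to 9 pDCT1 had a log2 change of -0.61 (limma adjusted p 0.00618), in a step where 1.69% of all genes were called higher and 0.829% lower. From section 12 to 13 pOMT1 had -0.84 (limma adjusted p 0.00868), with 429 to 545 FPKM in section 12 and 251 to 283 in section 13, ranges that did not overlap. In that step 0.0174% of all genes were called higher and 0.0304% lower. Neither pDCT1 nor pOMT1 reached a change of 1. From section 12 to 13 MEP3 had -0.11 (95% interval -0.74 to 0.52).

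Whether 2 transporters changed differently was tested on the log2 ratio of their FPKM + 1 within each library, which the scaling of the library hardly touches. All 15 pairs were compared in the 3 comparisons with exact two-sided permutation tests, adjusted over the 45. Of these 36 had an adjusted p under 0.05, 14 in section 4 against 1, 13 in section 9 against 4 and 9 in section 16 against 9. With 5 libraries against 4 the smallest p that can be had is 0.0159, and with 5 against 5 it is 0.00794. Each of the 36 went one way in every replicate. As sign flips within replicates, 5 pairs of libraries cannot go below 0.0625, so none passes in that form.

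MEP3 gained on pOMT1 in each comparison. The log2 ratio of pOMT1 to MEP3 was 2.19 ± 0.51 in section 1 (SD, n = 4), 0.20 ± 0.31 in section 4, -0.98 ± 0.14 in section 9 and -2.03 ± 0.32 in section 16 (n = 5 each). Its changes of -1.99, -1.18 and -1.05 had adjusted p of 0.0204, 0.0188 and 0.0188 by the exact permutation test. Between MEP3 and the triose phosphate translocator the log2 ratio changed by 1.41 from section 1 to 4 (exact permutation, adjusted p 0.0204). It changed by -0.04 from section 4 to 9, from 0.49 ± 0.18 to 0.45 ± 0.04 (n = 5 each; exact permutation, adjusted p 0.944). From section 9 to 16 it changed by 0.25 (exact permutation, adjusted p 0.0188).

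The ratio of pDCT1 to pDCT2 fell as well, by 1.12 on the log2 scale from section 1 to 4 and by 0.69 from section 4 to 9, with exact permutation adjusted p of 0.0204 and 0.0188. From section 9 to 16 its change was 0.02, from -2.26 ± 0.18 to -2.24 ± 0.16 (SD, n = 5 each; exact permutation, adjusted p 0.844). pOMT1 against pDCT1, which have the profiles most alike by shape among pairs with pOMT1, still differed, with changes in the log2 ratio of 0.72, 0.30 and -0.65 (exact permutation, adjusted p 0.0204, 0.0298 and 0.0204). The 9 pair tests without a call were mostly in section 16 against 9, where pDCT1, pDCT2, the triose phosphate translocator and the PEP translocator gave 6 pairs with changes between -0.17 and 0.07.

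Likeness of profile is given as Pearson r of the section means of log2(FPKM + 1) over 14 sections, leaving out section 7. It is a description, because the sections come from the same pools of plants and share the rise from section 1. Among the 6 genes r was 0.99 for MEP3 and the triose phosphate translocator and 0.99 for pDCT2 and the PEP translocator. It was 0.97 for MEP3 and the PEP translocator and 0.97 for pOMT1 and pDCT1. Close to these were the triose phosphate translocator with the PEP translocator and pDCT2 with MEP3, both at 0.96. The lowest values were 0.72 for pDCT1 and 0.73 for pOMT1, each with the triose phosphate translocator. Among all 12106 genes with a mean of at least 5 FPKM, the gene most like pDCT1 was pOMT1, while pDCT1 ranked 15 for pOMT1.

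Of the named genes, the 3 nearest to pOMT1 were cab48 (r 0.97), CP24 (0.97) and ts5 (0.97). The nearest to pDCT1 after pOMT1 were CP24 and ts5, both at 0.94. pDCT2 was nearest to ATP-D (0.99), kin11 (0.99) and vpp1 (0.98), and the PEP translocator to ATP-D (0.99), psaH (0.99) and PGR5 (0.99). MEP3 was nearest to FTR-B, pdrp1 and MSRA4, each at 0.99, and the triose phosphate translocator to gpb1 (1.00), APE1 (0.99) and L-FNRII (0.99).

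The soluble enzymes of the C4 cycle, 11 listed genes, were set beside the transporters. From section 1 to 4, 7 of 11 rose with a list median of 4.03, against 19.2% of all genes called higher and 18.1% lower. GRMZM2G146677 and GRMZM2G094712 had lower means in section 4, at 9.75 and 16.4 FPKM, than in section 1, at 15.6 and 27.6. Neither was called. Among those that rose were pep1 (PEP carboxylase) at 4.50 ± 0.27, ME1 (NADP-malic enzyme) at 4.33 ± 0.35 and C4ppdkZm1 (pyruvate phosphate dikinase) at 4.70 ± 0.27 on the log2 scale. MEP3, at 4.34, was the only transporter of the 6 with a change of that size, and mdh6 (NADP-malate dehydrogenase), at 2.67 ± 0.19, lay among the transporters. With the replicate number as a block or a pseudocount of 0.1, 8 of 11 enzymes were called from section 1 to 4. From section 4 to 9, 8 of 11 enzymes rose with a median of 1.11, where 5.03% of all genes were called higher and 30.3% lower. With upper quartile scaling 9 of 11 were called. The difference between the enzymes and the transporters was not tested. From section 9 to 16 none of the 11 was called by limma, and 2 had an unadjusted p under 0.05.

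Of 4 listed Calvin-Benson genes, 4 rose from section 1 to 4, against 19.2% of all genes called higher and 18.1% lower. From section 4 to 9, 2 rose, against 5.03% higher and 30.3% lower. From section 9 to 16, 2 rose, against 7.67% higher and 4.49% lower. The last 2 were RA and rca3, at 1.05 ± 0.18 and 1.32 ± 0.38, and 0 of 4 were called with quantile normalization and 1 with upper quartile scaling or without section 16 replicate 6. In the same comparison the triose phosphate translocator, which carries the product of this cycle, had 0.09.

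Among genes named for other plastid translocators, ppt1 (GRMZM2G047404) and ppt2 (GRMZM2G103047) went against the PEP translocator. ppt1 had 54.4 ± 9.6 FPKM in section 1 (SD, n = 4), 5.63 ± 2.0 in section 4 and 1.41 ± 0.72 in section 9 (n = 5 each). It fell by 3.09 on the log2 scale from section 1 to 4 (limma adjusted p 1.51e-09). ppt2 went from 6.06 ± 1.5 FPKM in section 1 (n = 4) to 0.951 ± 0.21 in section 4 (n = 5) and fell by 1.83 (limma adjusted p 1.25e-08). The mean level of the PEP translocator was 1.74 times that of ppt1 in section 1 and 67.8 times in section 4. gpt (GRMZM2G180720), at 11.1 ± 1.1 FPKM in section 1 (n = 4) and 8.65 ± 1.4 in section 4 (n = 5), had a log2 change of -0.33 (limma adjusted p 0.282), and bt1 (GRMZM2G144081) had too low a mean to be tested. These 4 genes were picked by name after the levels of the 6 transporters had been seen.

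**Figure D4:**
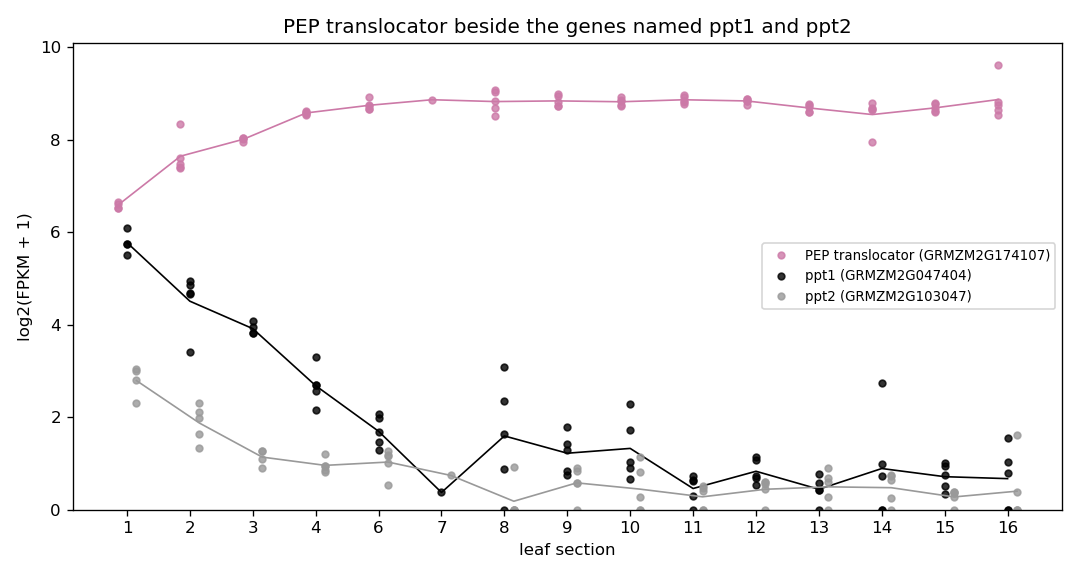
Log2(FPKM + 1) of the PEP translocator, ppt1 and ppt2 in each library (points) against the leaf section, with lines through the section means. The PEP translocator goes from 94.7 FPKM in section 1 to 382 in section 4, while ppt1 goes from 54.4 to 5.63 and ppt2 from 6.06 to 0.951.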

How the data were processed

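Polyadenylated RNA was extracted with TRIzol and made into strand-specific libraries, per the labels' protocols. The authors deposited FPKM values, with TopHat2 2.0.10, Cuffdiff 2.1.1 and the build B73 RefGen_v3 named in the submitters' processing notes. FPKM holds no read totals, so depth is given only relative to the median library. Of the value columns 0 lacked a sample, and 1 of the 6 replicates that the labels name was not analysed here. The rice table was not used here.

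A reference table of another assembly served to look up names and matched 18915 features. It holds no gene descriptions, so a planned search for other transporters by description found 0, and 4 were taken by name instead.

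On log2(FPKM + 1), a linear model with section as a factor was fitted to all 69 libraries, with limma 3.58.1 (R 4.3.3) and its trended variance. The 23052 genes whose mean reached 1 FPKM were tested, and all 6 transporters passed. Fold changes on this scale understate those of low genes. Calls needed a Benjamini-Hochberg adjusted p under 0.05 over all genes of a comparison and a log2 change of at least 1. Permutation tests were exact, in SciPy 1.17.1. The limma test of section 4 against section 1 was checked on simulated data with independent noise in each library. The F-test was not part of that check.

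The named genes are the 6 transporters, the listed enzymes and markers, the 4 other translocators taken by name (the planned rule took only called ones) and, for each transporter, the 3 named genes with the highest r and a mean FPKM of at least 5. The transporters, lists and comparisons were chosen with earlier results of these data known. By the labels, libraries that share a replicate number are sections of one pool of plants. After subtraction of section means, such libraries correlated at a median of 0.0146 over 429 pairs, and libraries with different numbers at -0.00436 over 1717. Alternatives were another pseudocount, no filter, all 75 libraries, 2 other scalings, a replicate block, the 2 sections alone, and fits without single replicates or doubtful libraries. The one without replicate 6 in sections 2 and 4 was chosen after seeing the data.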

Additional observations from a re-analysis of the deposited data

Results flagged for a closer look

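In each section with 4 or 5 libraries, a value was looked up when its gap to the nearest other library was large against the range of the section (ratio above 0.829 for 4 libraries and 0.71 for 5). This held for 22 values in 84 groups of a gene and a section, where chance gives about 1 in 20 groups. They came from 8 libraries.

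Section 2 replicate 6 stood high for 5 genes, at 412 FPKM of pOMT1, 278 of pDCT2, 499 of MEP3, 343 of the triose phosphate translocator and 325 of the PEP translocator. Section 4 replicate 6 stood high for 4, at 540 FPKM of pOMT1, 314 of pDCT2, 685 of MEP3 and 391 of the triose phosphate translocator. Section 1 replicate 6 was high for MEP3, at 33.8 FPKM. Section 16 replicate 6, the library with high FPKM in general, stood apart at 98.6 FPKM of pDCT1, 486 of pDCT2, 1942 of MEP3, 1229 of the triose phosphate translocator and 782 of the PEP translocator.

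Section 14 replicate 2, which matched section 4 best, was low at 385 FPKM of MEP3, 310 of the triose phosphate translocator and 247 of the PEP translocator. Section 12 replicate 4, which matched section 9 best, was low for the triose phosphate translocator, at 575 FPKM. Section 14 replicate 3 was high for pOMT1, at 407 FPKM. Section 15 replicate 4 was high at 432 FPKM of pOMT1 and 338 of pDCT2. The causes were not tested.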

How the results depend on the processing

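The counts of transporters called were 6 of 6 in the F-test and in section 4 against 1 under every alternative run, and 0 of 6 in section 16 against 9. In section 9 against 4 the count was 2 except with upper quartile scaling, which gave 4. Calls over successive steps were 6 to 8 under all alternatives and 6 to 7 when one replicate was left out. Of the other values for single genes, 252 kept their direction and call, 16 changed sign and 2 gained a call, pDCT2 at 1.14 and the PEP translocator at 1.00 in section 9 against 4 with upper quartile scaling. None of the values that changed sign had been called. In section 9 against 4, pDCT1 turned to 0.34 with quantile normalization and 0.45 with upper quartile scaling, and pOMT1, 0.01 as reported, was 0.36 and 0.75 under these scalings, neither called, and -0.026 to 0.055 when one replicate was left out. In section 16 against 9 the ranges with one replicate left out were -0.28 to 0.06 in pDCT1, -0.26 to 0.044 in pDCT2, -0.13 to 0.20 in the triose phosphate translocator and -0.18 to 0.094 in the PEP translocator. There, quantile normalization, upper quartile scaling and leaving out section 16 replicate 6 gave -0.17, -0.13 and -0.09 for the triose phosphate translocator and -0.27, -0.20 and -0.16 for the PEP translocator.

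The Calvin-Benson list had 4 calls in section 9 against 4 with upper quartile scaling. In section 16 against 9 it had 0 with quantile normalization, 1 with all 75 libraries, with upper quartile scaling or without section 16 replicate 6, and 1 to 2 with one replicate left out. The 36 pair calls went to 0 with the replicate block and to between 0 and 34 with one replicate left out, where the exact test cannot go below 0.0625 and 0.0286, and no called pair changed sign. Among limma calls of the transporters the block changed those of pDCT1 from section 1 to 2 and of MEP3 from section 2 to 3, given above, and no other. It raised the C4 enzymes called in section 4 against 1 from 7 to 8. The FPKM carry no counting error, and low genes such as ppt2 are least precise.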
